A study of Mus musculus with 12 samples.

Results

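The Hox genes encode homeodomain transcription factors that lie in 4 chromosomal clusters, and their RNA was followed in sorted dermal papilla (DP) cells of mouse back skin. Every gene whose symbol is Hox followed by the cluster letter a, b, c or d and a paralog number was taken, which gave 32 genes of the 15557 protein-coding genes in either table. Of these, 10 belong to cluster A (chr6:52155590-52245810), 9 to cluster B (chr11:96271457-96368256), 8 to cluster C (chr15:102921103-103036852) and 5 to cluster D (chr2:74697727-74765142), all on GRCm38. Of them 31 were listed at P14, 31 at P16 and 30 on both days, with Hoxb1 at P14 only and Hoxc13 at P16 only. Other Hox genes, such as Hoxa13 and Hoxd10 to Hoxd13, were listed on neither day and so were not analysed.

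Within each cluster the genes are numbered by paralog group, and genes with low numbers are expressed in anterior parts of the embryo while genes with high numbers are expressed in posterior and distal parts. The combination of Hox genes that a region switches on is thought to give it its positional identity, and fibroblasts of adult skin are known to keep a Hox pattern that reflects where in the body they came from. Hox proteins bind DNA together with the TALE homeodomain cofactors of the Pbx, Meis and Pknox families, and Polycomb and Trithorax proteins maintain the silent and active states of the clusters. The DP is the cluster of mesenchymal cells at the base of the hair follicle that directs growth of the hair shaft in anagen, the growth phase, before the follicle regresses in catagen.

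The study asked how Fgf signaling in the DP sets the length of anagen, by deleting the receptor genes Fgfr1 and Fgfr2 in the DP. Control mice, which the labels call wild type, were compared with dMF1/2 mice (Cor-cre/+; Fgfr1Flox/Flox; Fgfr2Flox/Flox) at postnatal days 14 and 16 (P14 and P16), with 3 libraries per group and 12 in all. Cor-cre expresses the recombinase from the Corin gene in the DP after birth, and DP cells of both genotypes carried a Cre-dependent YFP reporter at ROSA26 by which they were sorted. The labels place all 4 groups in anagen. The methods give the control genotype as either Cor-cre/+; Fgfr1Flox/+; Fgfr2Flox/+ or mice without Cre that carry both floxed genes, and do not say which was sequenced, although mice without Cre would give no YFP+ cells. Cells came from the middle of the back, so that positions along the body were not compared, and deletion follows Corin expression and may be incomplete in a sorted population.

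Each library came from 1 mouse and held 19302358 to 29860750 reads in the genes of its table. Values are given as normalized reads, that is reads divided by a size factor, here on a scale common to all 12 libraries, and fold changes as differences of log2(value + 1). Genes with a mean of at least 10 were tested, which left 26 Hox genes in each comparison. Among the Hox genes left out were Hoxa4, Hoxd1 and Hoxd3 everywhere, Hoxb1 at P14, and Hoxa11 and Hoxc13 at P16. Summed per group, Corin and 15 other DP marker genes had 122632 to 165704 normalized reads in the P14 control libraries and 61802 to 101310 in the P16 control libraries, and 5 hair matrix and shaft keratinocyte markers found in both tables summed to at most 105 in any library. Markers of other mesenchymal cells were abundant, since 8 dermal fibroblast markers summed to 59449 to 92253 normalized reads per library and 6 dermal sheath markers to 13813 to 42804. Fgfr1 had a log2 fold change of -0.40 in dMF1/2 mice at P14 (standard error, SE, 0.13, adjusted p = 0.501) and of -0.50 at P16 (SE 0.16, adjusted p = 0.130), and Fgfr2 of -0.11 and -0.01, for reads summed over whole genes. The deleted exons were not counted apart, so that these gene totals do not check the deletion. The libraries numbered 1 of both genotypes at P14 stood apart from the rest, with 1285380 and 1792183 normalized reads of the collagen gene Col1a1 against 2871259 to 4554460 in the other 10. Of the 26 Hox genes tested, 13 were highest and 3 lowest in library 1 of both genotypes at P14, and counts without these libraries are given beside the results. The share of all genes for which this held is not given. Over all genes these libraries deviated together from the means of their groups (correlation of 0.586). In bulk RNA, fewer cells of a type and less RNA per cell cannot be told apart.

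Among Hox genes in the DP, Hoxd8 was highest, followed by Hoxc8, Hoxc6, Hoxa10 and Hoxc4. Levels of different genes were compared as normalized reads per kb of annotated exon, averaged over the 12 libraries. By this measure Hoxd8 had 230 normalized reads per kb, Hoxc8 194, Hoxc6 152, Hoxa10 118 and Hoxc4 110. These genes were moderately expressed at most, since 7 of the 30 Hox genes in both tables lay above the median of all genes, which was 66.6 per kb, and the highest of them lay at the 80.2 percentile.

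The order of the leading genes was only partly larger than the spread between libraries. In P14 control mice, Hoxd8 stood at 233 ± 59.4 normalized reads per kb (SD, n = 3) and Hoxa10 at 164 ± 60.1, so that neither could be ranked apart from Hoxc8 at 197 ± 6.37, and Hoxa10 could not be ranked apart from Hoxc6 at 158 ± 7.21. In P16 control mice Hoxd8 stood at 236 ± 2.89, Hoxc8 at 154 ± 6.56 and Hoxc6 at 146 ± 17.0. Hoxc4 at 89.8 ± 9.07, Hoxc10 at 73.6 ± 4.71 and Hoxd9 at 69.0 ± 7.99 then came before Hoxa10 at 66.1 ± 18, which could not be ranked apart from these 3. There Hoxd8 lay above the others by more than the spread, while Hoxc8 and Hoxc6 could not be ranked.

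**Figure D1:**
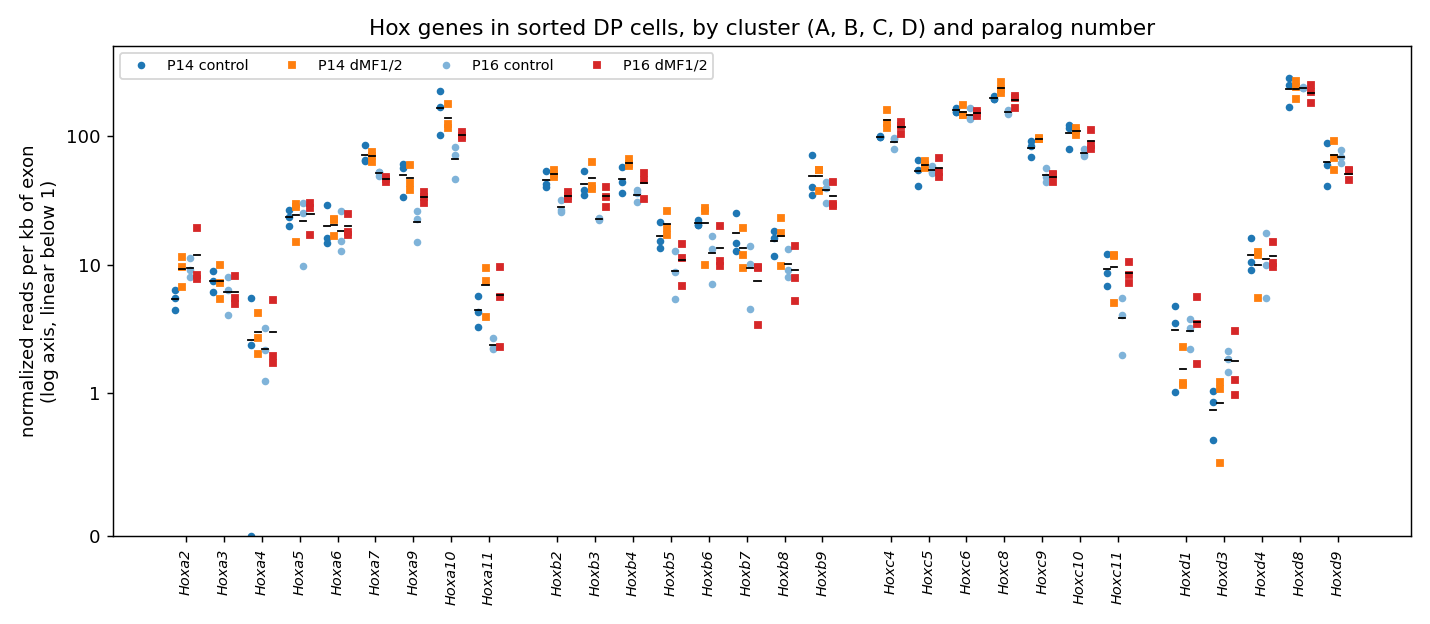
Normalized reads per kb of exon (vertical log axis, linear below 1) for Hox genes found in both tables, ordered by cluster and paralog number. Each point is 1 library, coloured by group, and each black bar is the mean of 3 libraries. Hoxd8, Hoxc8 and Hoxc6 reach above 100 in every group, and Hoxa4, Hoxd1 and Hoxd3 stay below 10.

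Members of the same paralog group differed widely in level. In group 4, Hoxc4 had 110 normalized reads per kb, Hoxb4 46.5, Hoxd4 11.1 and Hoxa4 2.70. In group 8, Hoxd8 and Hoxc8 stood at 230 and 194 while Hoxb8 stood at 12.8. The 4 genes of group 9 lay closer together, with Hoxc9 at 68.4, Hoxd9 at 63.3, Hoxb9 at 42.2 and Hoxa9 at 37.9. In group 10, Hoxa10 stood at 118 and Hoxc10 at 94.9, and from there the level fell to 7.81 for Hoxc11 and 4.89 for Hoxa11.

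At the low end, Hoxa4, Hoxd1 and Hoxd3 had means of 4.30, 5.25 and 5.67 normalized reads and were not tested in any comparison between the days. Hoxb1, a hindbrain gene, had a mean of 4.51 in the P14 table, and Hoxc13, which is known for its role in the hair matrix and nail, a mean of 2.30 in the P16 table. A sum of 3 reads was taken as the floor of detection, and Hoxa4 had 0 reads in P14 control library 3. These counts are too low to show a difference of moderate size.

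Cluster C contributed most Hox reads in every group. Cluster C held 39.8% ± 2.11 (SD, n = 3) of the reads of the 30 genes in P14 control mice and 43.1% ± 1.21 in P16 control mice. Cluster A held 25.6% ± 5.54 at P14 and 18.1% ± 2.01 at P16, whereas cluster D held 18.4% ± 5 and 24.9% ± 0.819. In dMF1/2 mice cluster A held 22.4% ± 3.03 at P14 and 21.2% ± 1.97 at P16, and cluster D 17.6% ± 3.69 and 19.8% ± 2.89. At P14 cluster A exceeded cluster D in control library 1 (31.6% against 12.6%) and library 2 (24.4% against 21%) but not in library 3 (20.7% against 21.5%).

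Because Hox genes share their homeobox, it was checked whether reads could be assigned to 1 member. The 4 paralogs of group 9 differ at 51 of the 180 bases of the homeobox, and their identity to each other was 81.7% to 84.4%. No stretch of 61 bases, the length of the reads, was shared between the transcripts of different Hox genes, except 108 windows of Hoxc5 and Hoxc10 and 328 of Hoxd3 and Hoxd4. Hoxd3 and Hoxd4 also share 62.3% and 52.3% of their exon bases with other genes on the same strand, so that their levels are uncertain. Exons of Hoxb3os on the opposite strand cover 52.9% of the exon bases of Hoxb3 and 27.3% of those of Hoxb2. Those of Hoxaas3 cover 20.4% for Hoxa7. The library kit keeps strand but the strand setting of the counting is not given in the sources used here, so that reads of these antisense genes may be included. Hoxa9, Hoxa10, Hoxc8 and Hoxc9 have no exon overlapped on the opposite strand.

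From P14 to P16, the expression of 7 Hox genes fell in control mice and that of 0 rose, where 6.26% of all genes did. These were the central and posterior genes Hoxa7, Hoxa9 and Hoxa10 of cluster A, the anterior genes Hoxb2 and Hoxb3 of cluster B, and Hoxc8 and Hoxc9 of cluster C, which in the embryo pattern the trunk. Hoxa10 and Hoxa9 fell to 0.412 and 0.43 of their P14 level. The 7 genes were called among 26 tested, while 8.28% of all 13415 genes tested were called lower and 14.5% were called in either direction (limma, adjusted p under 0.05).

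Hoxa10 (ENSMUSG00000000938, chr6:52231197-52240854), a posterior gene that acts in the hindlimb and the reproductive tract, had 727, 552 and 334 normalized reads in the 3 P14 control libraries and 151, 266 and 231 at P16. All 3 P14 values were above all 3 P16 values, but P14 library 3 was close to the highest P16 value. The log2 fold change was -1.28 (SE 0.28, adjusted p = 0.0138).

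Its neighbour Hoxa9 (ENSMUSG00000038227, chr6:52223100-52231089), a posterior gene also known from leukaemia, went from 338, 312 and 187 to 83.5, 127 and 145 normalized reads. P14 library 3 was again the lowest of its group, and the groups did not overlap. The log2 fold change was -1.22 (SE 0.26, adjusted p = 0.0129). Hoxa7 (ENSMUSG00000038236, chr6:52214491-52221854), a trunk gene, stood at 243, 183 and 187 normalized reads at P14 and at 151, 152 and 141 at P16. Library 1 was the highest at P14, and the log2 fold change was -0.45 (SE 0.13, adjusted p = 0.0386).

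In cluster B, Hoxb3 (ENSMUSG00000048763, chr11:96323326-96347930), which patterns the hindbrain and neck, had 227, 161 and 147 normalized reads at P14 and 98.1, 95.8 and 95.1 at P16. The P16 values were nearly equal and all lay below the P14 values, with a log2 fold change of -0.86 (SE 0.21, adjusted p = 0.0238). Hoxb2 (ENSMUSG00000075588, chr11:96350525-96354012), a hindbrain gene, had 139, 185 and 148 at P14 and 89.5, 110 and 93.1 at P16. The groups did not overlap, and library 1 was here the lowest at P14. The log2 fold change of Hoxb2 was -0.68 (SE 0.14, adjusted p = 0.0102).

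In cluster C, Hoxc9 (ENSMUSG00000036139, chr15:102976439-102985099), a gene of the thoracic region, had 223, 201 and 167 normalized reads at P14 and 107, 137 and 117 at P16, a log2 fold change of -0.71 (SE 0.13, adjusted p = 0.00824). Hoxc8 (ENSMUSG00000001657, chr15:102990607-102994111), which acts in the trunk and its motor neurons, had 548, 580 and 548 at P14 and 454, 440 and 418 at P16. The fall of Hoxc8 was small but larger than the narrow spread of either group, with a log2 fold change of -0.35 (SE 0.10, adjusted p = 0.0369).

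The other Hox genes tested did not pass in control mice, though most had values below 0. Of the 26 tested, 22 had a log2 fold change below 0, as did 48.2% of all genes, and the median was -0.41 against 0.01 for all genes. The groups did not overlap for 13 Hox genes that were lower at P16 (18.4% of all genes) and for 1 that was higher, Hoxa2 (17.5% of all genes). Hoxc10 had a log2 fold change of -0.49 (SE 0.17, adjusted p = 0.0746) and Hoxc4 one of -0.14 (SE 0.13, adjusted p = 0.503). Hoxa2, the anterior gene that patterns the second pharyngeal arch, had 11.3, 9.79 and 7.91 normalized reads at P14 and 19.8, 14.3 and 16 at P16, for a log2 fold change of 0.73 (SE 0.37, adjusted p = 0.201). The genes of highest level in cluster D differed little, Hoxd8 with a log2 fold change of 0.05 and Hoxd9 of 0.21.

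The count of 7 depended on single libraries. It was 2 when replicate 1 of either P14 or P16 control mice was left out, 4 when P16 control replicate 3 was, and 2 in a fit of the 6 control libraries alone, and 5 without both P14 libraries numbered 1. The count over all genes fell in the same fits, from 1951 to 782 and 693 without replicate 1 of P14 and of P16, 971 without P16 replicate 3, 806 from the control libraries alone and 951 without both libraries numbered 1. Hoxb2 and Hoxc9 kept an adjusted p under 0.05 with any 1 of the 12 libraries left out, where their highest adjusted p was 0.0464 and 0.0391. The 2 genes called from the 6 control libraries alone were Hoxb3 and Hoxc9, and Hoxb2 did not pass there (adjusted p = 0.0556). Beside these falls, 8 of 16 DP marker genes were called lower in control mice, with a median log2 fold change of -0.96, and 0 were called higher. The 6 dermal sheath markers had a median of -0.38, with 0 called. Whether these markers had a part in the Hox result was not tested.

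**Figure D2:**
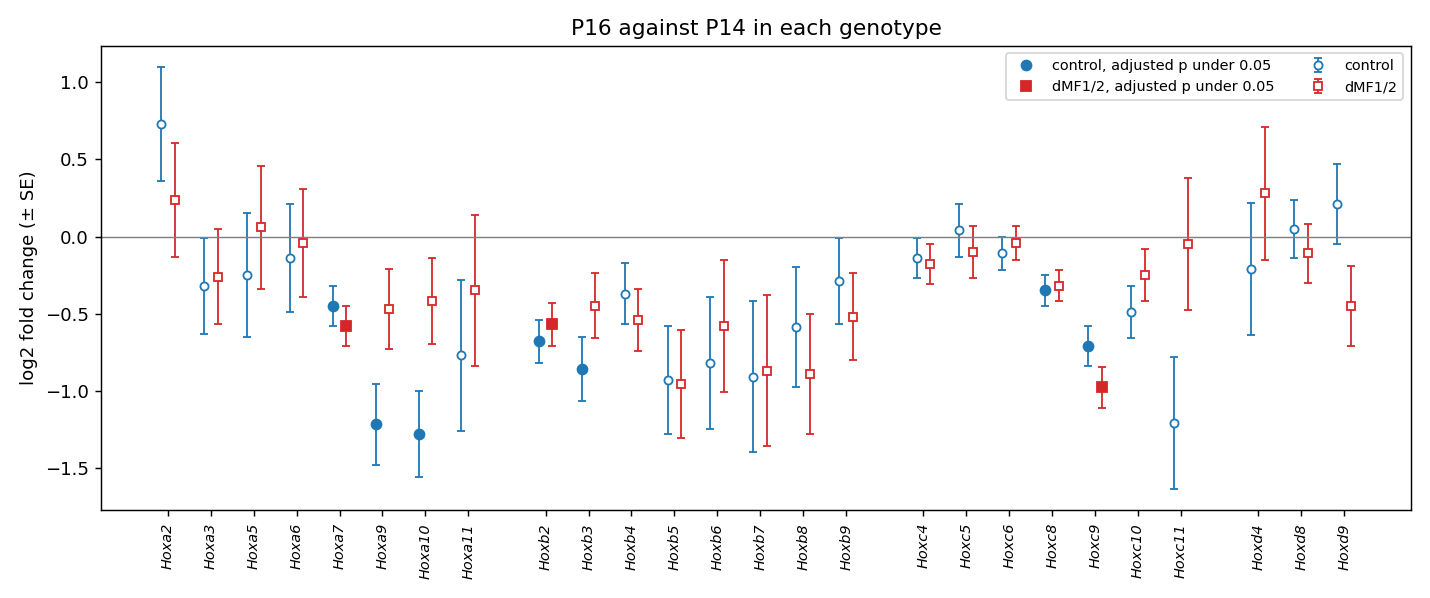
Log2 fold change from P14 to P16 (vertical axis, with its SE) for the 26 Hox genes tested, in control mice (circles) and dMF1/2 mice (squares), ordered by cluster and paralog number. Filled symbols passed an adjusted p under 0.05, and most points lie below 0, with all 8 genes of cluster B below 0 in both genotypes.

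In dMF1/2 mice, 3 Hox genes fell from P14 to P16, Hoxa7, Hoxb2 and Hoxc9, each of which had also fallen in control mice. Among all genes 3.97% were called lower and 1.83% higher, or 5.8% in either direction, and of the Hox genes 0 were called higher. Hoxc9 had the lowest adjusted p of the list, and went from 236, 230 and 228 normalized reads at P14 to 120, 123 and 107 at P16. Both groups were tight and far apart, so that the level at P16 was 0.506 of that at P14, with a log2 fold change of -0.98 (SE 0.13, adjusted p = 0.00168).

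Hoxa7 had 217, 180 and 202 normalized reads in the P14 dMF1/2 libraries and 139, 127 and 132 at P16, a log2 fold change of -0.58 (SE 0.13, adjusted p = 0.0251). Hoxb2 stood at 188, 177 and 168 normalized reads at P14 and at 113, 127 and 119 at P16, for a log2 fold change of -0.57 (SE 0.14, adjusted p = 0.0350). The groups did not overlap for either gene. Hoxc9 passed with any 1 of the 12 libraries left out, but Hoxa7 and Hoxb2 did not: only 1 Hox gene was called without dMF1/2 replicate 1 or 3 of P14 or without any 1 of the P16 dMF1/2 libraries, and 1 in a fit of the 6 dMF1/2 libraries alone. Without both P14 libraries numbered 1, 2 were called. Over all genes the count was 778. It was 678 and 287 without dMF1/2 replicates 1 and 3 of P14, and 257, 637 and 350 without replicates 1, 2 and 3 of P16. From the dMF1/2 libraries alone it was 322, and without both P14 libraries numbered 1 it was 819.

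Hoxa10 and Hoxa9, which had the lowest log2 fold changes in control mice, did not pass in dMF1/2 mice. Hoxa10 had 577, 378 and 401 normalized reads at P14 and 316, 329 and 352 at P16, which did not overlap, with a log2 fold change of -0.42 (SE 0.28, adjusted p = 0.405). Hoxa9 had 333, 211 and 241 at P14 and 186, 168 and 203 at P16, for a log2 fold change of -0.47 (SE 0.26, adjusted p = 0.307). In both genes P14 library 1 was well above the other two.

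Across the list, 23 of 26 Hox genes had a log2 fold change below 0 in dMF1/2 mice (48.7% of all genes), with a median of -0.39 against 0.01 for all genes. The median was -0.25 without P14 dMF1/2 replicate 1. The groups did not overlap for 9 Hox genes that were lower at P16 (14.4% of all genes). Among them, Hoxb4 had a log2 fold change of -0.54 (SE 0.20, adjusted p = 0.137), Hoxc8 one of -0.32 (SE 0.10, adjusted p = 0.0804) and Hoxd9 one of -0.45 (SE 0.26, adjusted p = 0.333). The gene with the highest value was Hoxd4, at 0.28 (SE 0.43, adjusted p = 0.756), which turned to -0.09 without P14 dMF1/2 replicate 2. Of the 16 DP markers, 0 were called in either direction in dMF1/2 mice, with a median log2 fold change of -0.22. The 6 dermal sheath markers had a median of -0.60, with 0 called, and their part in the Hox result was not tested.

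Both genotypes shared the direction for 20 Hox genes that were lower at P16 in each (76.9% of those tested, against 36.8% of all genes). In cluster A 7 of 8 genes were lower in control mice (median -0.38, from -1.28 to 0.73), of which 3 passed, and 6 of 8 in dMF1/2 mice (median -0.30), of which 1 passed. All 8 tested genes of cluster B were lower in each genotype, with a median log2 fold change of -0.75 in control and -0.57 in dMF1/2 mice, though 2 and 1 of them passed. In cluster C 6 of 7 genes were lower in control mice (median -0.35) and 7 of 7 in dMF1/2 mice (median -0.18). In cluster D the medians were 0.05 and -0.11 over 3 genes. By paralog number, genes 9 to 13 had a median of -0.74 in control and -0.44 in dMF1/2 mice, genes 4 to 8 of -0.30 and -0.25, and genes 1 to 3 of -0.50 and -0.36. Genes of a cluster lie side by side and are not independent of each other, so these medians are descriptions. Same-numbered libraries of both genotypes also deviated together within a day, so the genotypes are not independent repeats of the change.

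The summed level of the 30 genes was lower in each P16 library than in any P14 library of the same genotype. It was 4610, 4857 and 3974 normalized reads in the P14 control libraries and 3298, 3386 and 3469 at P16. In dMF1/2 mice the sum was 5088, 4512 and 4652 at P14 and 3581, 3945 and 3837 at P16. In RPM, which scales reads to the library total, the days were apart within each genotype too, narrowly so (at least 156 at P14 and at most 150 at P16 in control, 179 and 175 in dMF1/2 mice), but not across genotypes, since P14 control library 3 at 156 lay below P16 dMF1/2 libraries 2 and 3 at 159 and 175. Genes 9 to 13 made up 33.2% ± 5.12 (SD, n = 3) of this sum in P14 control mice and 25.2% ± 2.12 at P16, while in dMF1/2 mice their share was 30.8% ± 1.25 and 27.4% ± 0.643.

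A term for the interaction of genotype with day asked, gene by gene, whether the genotypes changed unequally from P14 to P16. By limma 0 of 26 Hox genes passed, as did 0.0% of all genes, with 1 Hox gene at an unadjusted p under 0.05 (4.83% of all genes), and neither DESeq2 nor edgeR called a Hox gene. Without both P14 libraries numbered 1 these counts were 0 and 1 as well. The gene under 0.05 in the fit of all libraries was Hoxa10, with an interaction term of 0.86, dMF1/2 minus control, on the log2 scale (SE 0.39, unadjusted p = 0.0487, adjusted p = 1.0). The highest interaction term was that of Hoxc11, a posterior gene, at 1.16 (SE 0.60, adjusted p = 1.0), and the lowest that of Hoxd9 at -0.65 (SE 0.36, adjusted p = 1.0). Hoxa9, Hoxa10, Hoxb3 and Hoxc8, called by limma in control mice only, are therefore not shown to differ between the genotypes. DESeq2 called 8 Hox genes between the days in control mice (2580 of 13415 genes, or 19.2%) and 4 in dMF1/2 mice (1341 of 13415 genes), among them Hoxc10 in control (adjusted p = 0.0438) and Hoxc8 in dMF1/2 mice (adjusted p = 0.0494).

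At P14, 0 of 26 Hox genes differed between dMF1/2 and control mice by limma, against 0.0525% of all genes. Of the Hox genes 3 had an unadjusted p under 0.05 (7.32% of all genes), and neither DESeq2 nor edgeR nor the replicate block called any, although the block raised the count over all genes from 7 to 224. Without both libraries numbered 1, 0 were called and 1 had an unadjusted p under 0.05. The median log2 fold change was 0.07, and it ranged from -0.03 without P14 control replicate 3 to 0.18 without P14 dMF1/2 replicate 3, so that its direction rested on 1 library. The groups did not overlap for 5 Hox genes that were higher in dMF1/2 mice (6.33% of all genes) and for 0 that were lower (6.32%).

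Those 5 genes were spread over 3 clusters. Hoxc4, an anterior gene of cluster C, had 252, 258 and 250 normalized reads in control libraries against 411, 296 and 321 in dMF1/2 libraries, a log2 fold change of 0.42 (SE 0.14, adjusted p = 0.511). The control libraries were nearly equal while the dMF1/2 libraries were scattered above them. Hoxc8 had log2 fold changes of 0.26 (SE 0.10, adjusted p = 0.610), Hoxc9 of 0.24 (SE 0.13, adjusted p = 0.814) and Hoxb4 of 0.46 (SE 0.19, adjusted p = 0.672). Hoxa2 had the highest value, 0.69 (SE 0.37, adjusted p = 0.807), from 7.91 to 20.2 normalized reads in any library, and Hoxb7 the lowest, at -0.36 (SE 0.39, adjusted p = 0.953).

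At P16, 0 of 26 Hox genes passed by limma, against 4.32% of all genes, with 7 Hox genes at an unadjusted p under 0.05 (19.0% of all genes). DESeq2 and the fit with the replicate number as a block each called 1, Hoxa10 (adjusted p = 0.0414 in both), while edgeR called 0. Over all genes the block raised the count from 582 to 1403. The groups did not overlap for 8 Hox genes that were higher in dMF1/2 mice (12.9% of all genes) and 2 that were lower (11.6%), and the median log2 fold change was 0.19, or 0.09 without P16 control replicate 2.

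The 3 largest differences among genes of at least 50 mean normalized reads were those of Hoxa9, Hoxa10 and Hoxb3, which had fallen in control mice. Hoxa10 had 151, 266 and 231 normalized reads in control libraries against 316, 329 and 352 in dMF1/2 libraries, a log2 fold change of 0.66 (SE 0.20, adjusted p = 0.109). Hoxa9 had 83.5, 127 and 145 in control libraries against 186, 168 and 203 in dMF1/2 libraries, with 0.68 (SE 0.21, adjusted p = 0.118). Hoxb3 had 98.1, 95.8 and 95.1 in control libraries against 119, 142 and 171 in dMF1/2 libraries, with 0.57 (SE 0.16, adjusted p = 0.0938). In each of these genes every dMF1/2 library lay above every control library. These comparisons use the same P16 control libraries as the change with age in control mice and are not independent of it.

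Further up the clusters, Hoxc11 had the highest log2 fold change, 1.16 (SE 0.43, adjusted p = 0.189), from 11.2, 8.16 and 4.01 normalized reads in control to 16.9, 21.1 and 14.5 in dMF1/2 mice. The number of reads behind it was small. Hoxc4 had a log2 fold change of 0.39 (SE 0.13, adjusted p = 0.132), Hoxc8 one of 0.29 (SE 0.11, adjusted p = 0.183), Hoxc10 one of 0.31 (SE 0.16, adjusted p = 0.333) and Hoxb2 one of 0.30 (SE 0.14, adjusted p = 0.306). For Hoxc4 and Hoxc8 the groups did not overlap at P14 either.

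Lower in dMF1/2 mice at P16 were the values of Hoxd9, a posterior gene that acts in the forelimb, and Hoxa7. Hoxd9 had 165, 146 and 131 normalized reads in control libraries against 114, 115 and 97.6 in dMF1/2 libraries, a log2 fold change of -0.43 (SE 0.15, adjusted p = 0.157), the lowest of the list. Hoxa7 had 151, 152 and 141 in control libraries against 139, 127 and 132 in dMF1/2 libraries, with -0.15 (SE 0.12, adjusted p = 0.581). Beside these values, 4 of 16 DP markers were called higher and 1 lower at P16 in dMF1/2 mice (median log2 fold change 0.91), and their part in the Hox values was not tested. An exact two-sided permutation test of 3 libraries against 3 cannot give a p below 0.1, the value for each gene whose groups did not overlap.

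**Figure D3:**
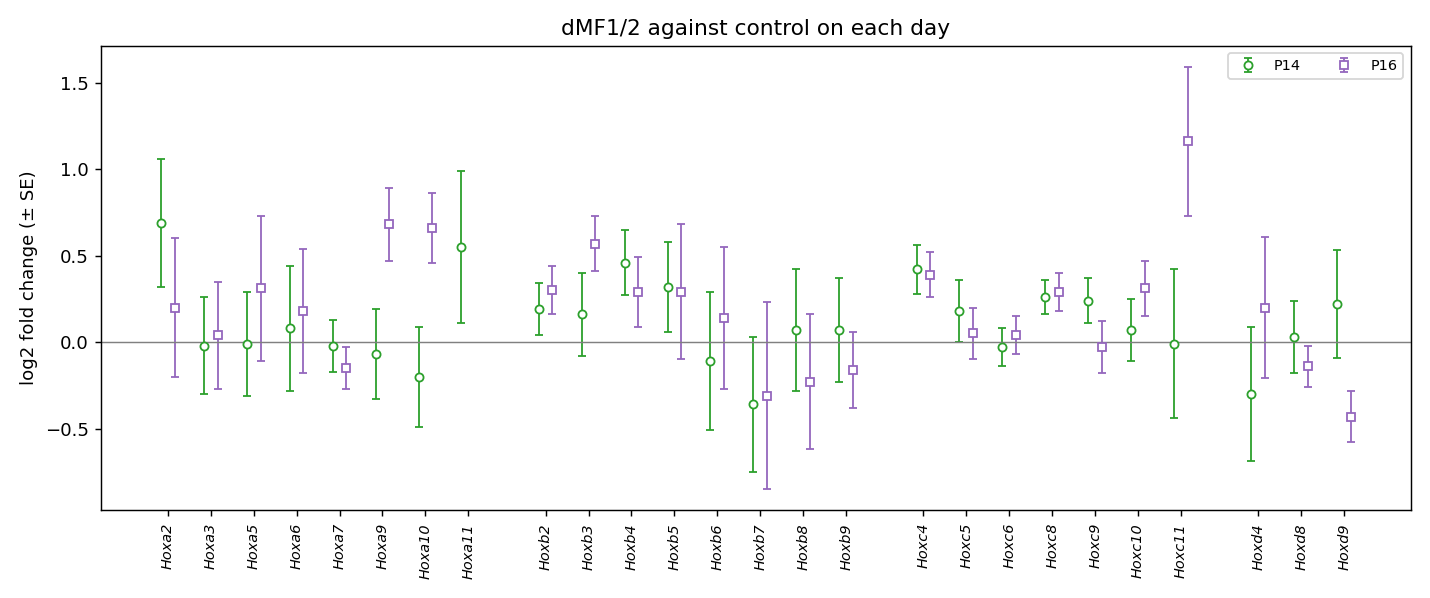
Log2 fold change of dMF1/2 against control mice (vertical axis, with its SE) at P14 (circles) and P16 (squares) for Hox genes tested on either day, ordered by cluster and paralog number. No symbol is filled because 0 of 26 genes passed on either day, and Hoxc11, Hoxa9, Hoxa10 and Hoxb3 stand highest at P16.

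**Figure D4:**
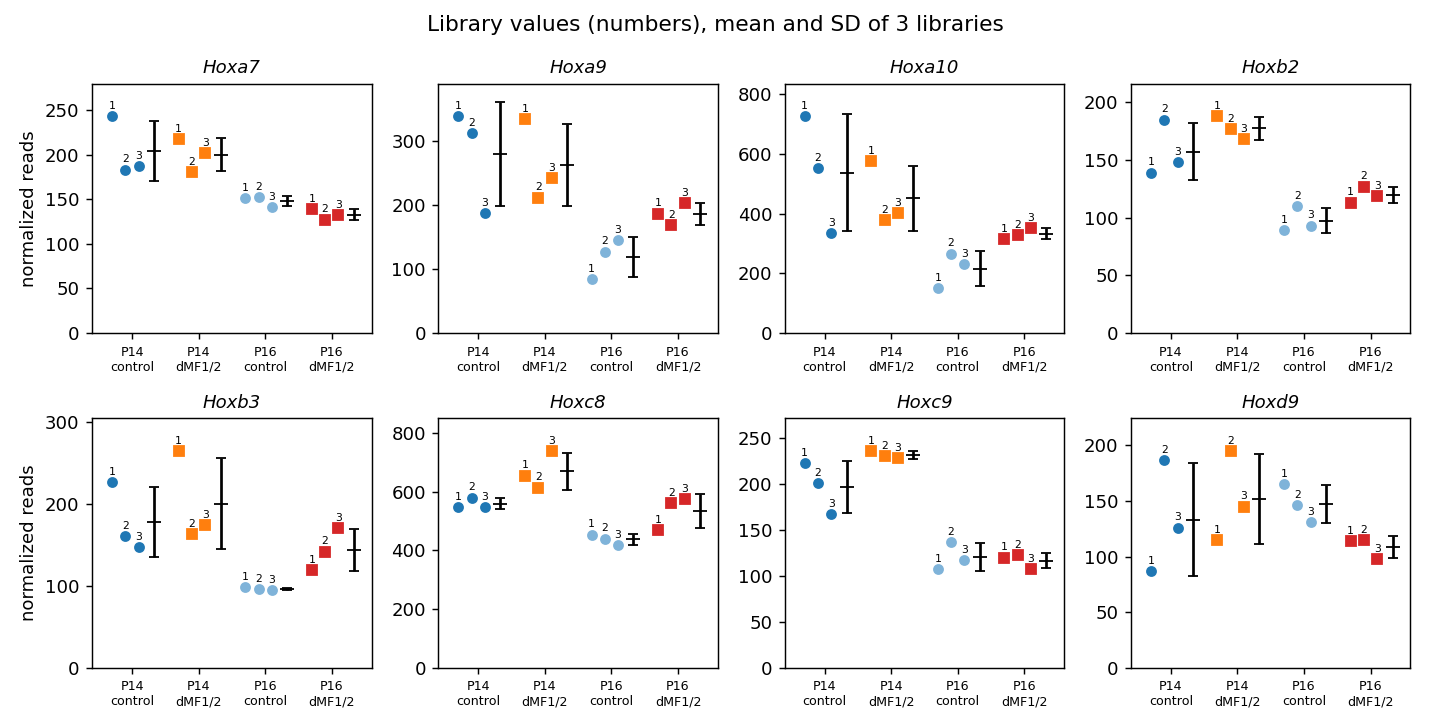
Normalized reads (vertical axes from 0) of the 7 Hox genes that fell in control mice and of Hoxd9 in each library. Points are libraries with their replicate number, and black bars are the mean and SD of 3 libraries. P14 library 1 is the highest of its group in both genotypes for Hoxa7, Hoxa9, Hoxa10, Hoxb3 and Hoxc9 and the lowest for Hoxd9.

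Hox genes varied more between libraries of a group than most genes did. The median SD of log2 values within groups was 0.37 for the 26 Hox genes and 0.19 for all genes tested. Part of this went with low level, since for genes with a mean of 100 to 800 normalized reads it was 0.22 for 15 Hox genes and 0.17 for all. Of the 26, Hoxc8 and Hoxc6 varied least, at 0.11 and 0.12, and among the 15 genes of higher level Hoxa10, Hoxb9, Hoxa9 and Hoxd9 varied most, at 0.39, 0.38, 0.36 and 0.35.

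Sequences around the genes that fell in control mice were examined for features they share. The clusters carry the microRNAs miR-10 and miR-196, which are known to repress Hox genes, and their mature sequences from RefSeq (GRCm38.p6) are shown with the seed, bases 2 to 8, in capitals. MicroRNAs themselves were not measured in these data.
mmu-miR-10a-5p: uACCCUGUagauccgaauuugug
mmu-miR-10b-5p: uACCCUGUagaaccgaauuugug
mmu-miR-196a-5p: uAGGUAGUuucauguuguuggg
mmu-miR-196b-5p: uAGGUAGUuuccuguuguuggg
The 2 miR-10 sequences share 1 seed and the 2 miR-196 sequences share the other. A match to the miR-196 seed, the letters ACTACCT, was found in the longest annotated 3′ UTR of 9 of 32 Hox genes, whereas 7.7% of 15279 genes with a 3′ UTR held one. A match to the miR-10 seed, ACAGGGT, was found in 4 of 32 Hox genes and in 14.9% of all genes. Of the 7 genes that fell in control mice, Hoxa7, Hoxa9 and Hoxc8 held a miR-196 match and Hoxb3 a miR-10 match, and Hoxa10, Hoxb2 and Hoxc9 held neither. These sites are shown with the matched bases in capitals.
Hoxa7, miR-196 match starting at base 719 of the 3′ UTR: cgcaggcacagccaaaatACTACCTa
Hoxa7, miR-196 match starting at base 756 of the 3′ UTR: tttgagaggcactcccaaACTACCTa
Hoxa7, miR-196 match starting at base 888 of the 3′ UTR: ctgcaaaccatgatcaatACTACCTa
Hoxa7, miR-196 match starting at base 909 of the 3′ UTR: acctactactagccctaaACTACCTa
Hoxa9, miR-196 match starting at base 337 of the 3′ UTR: taagcaaaaggaaagaaaACTACCTt
Hoxc8, miR-196 match starting at base 135 of the 3′ UTR: atgacactcacaactctaACTACCTg
Hoxc8, miR-196 match starting at base 892 of the 3′ UTR: ataataaatctttaacatACTACCTa
Hoxb3, miR-10 match starting at base 903 of the 3′ UTR: tcttgacttaacgtgaaaACAGGGTa
Hoxa7 held 4 of the matches and Hoxc8 2. A match is a description of the sequence, not a site shown to be used. The gene of Mir196b lies within an exon of Hoxa9.

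The 300-base promoters, from 250 bases before to 50 after the start, of 17 of the 32 Hox genes were in RefSeq (18 promoters). Hox promoters held a median of 13.5 CpG dinucleotides, from 4 to 29, against a median of 7 over all 32851 promoters. A promoter each of Hoxa9 and Hoxa10, the 2 genes that fell most in control mice, is shown with CpG in capitals.
Hoxa9, chr6:52227321-52227620, minus strand, GRCm38.p6: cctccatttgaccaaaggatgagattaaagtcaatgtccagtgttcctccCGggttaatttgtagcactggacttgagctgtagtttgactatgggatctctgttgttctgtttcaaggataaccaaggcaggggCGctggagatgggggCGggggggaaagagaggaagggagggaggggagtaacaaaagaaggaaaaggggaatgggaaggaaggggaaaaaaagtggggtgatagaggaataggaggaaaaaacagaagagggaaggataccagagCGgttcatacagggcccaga
Hoxa10, chr6:52234890-52235189, minus strand, GRCm38.p6: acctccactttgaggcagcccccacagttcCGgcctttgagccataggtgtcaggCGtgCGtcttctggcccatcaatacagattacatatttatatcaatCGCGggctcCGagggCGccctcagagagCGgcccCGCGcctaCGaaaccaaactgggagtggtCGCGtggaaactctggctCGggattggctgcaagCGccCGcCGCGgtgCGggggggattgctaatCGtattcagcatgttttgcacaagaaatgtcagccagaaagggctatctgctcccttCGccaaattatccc
The Hoxa9 promoter held 4 CpG and the Hoxa10 promoter shown held 21, and a second promoter of Hoxa10 held 12. On both strands, 6 motifs were searched for, all of which could overlap. A Pbx-Hox composite, TGATNNAT, was present in 3 of 18 Hox promoters (8.8% of all promoters) and a posterior Hox motif, CCATAAA, in 1 (2.7%). An ETS motif, CCGGAAG, was in 0 (8.9%), a TCF/LEF motif, CTTTGAT, in 1 (3.7%), a TATA box, TATAAA, in 3 (13.6%) and an E-box, CACGTG, in 2 (7.2%). Of the promoters of Hoxa7, Hoxa9 and Hoxa10, only a Hoxa10 promoter held any of them, the TATA box. Its letters lay on the opposite strand, at -160 from the start. No promoter of Hoxb2, Hoxb3, Hoxc8 or Hoxc9 was among the 18.

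Among proteins that act with Hox factors, the TALE cofactor Meis1 had 1605 to 2384 normalized reads across the libraries. Its log2 fold changes lay between -0.12 and 0.13 in the genotype and day comparisons, none of which passed.

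Of 30 Polycomb genes, 1 rose and 2 fell in control mice from P14 to P16, and 1 rose and 1 fell in dMF1/2 mice, while 0 differed between the genotypes on either day. Among all genes 6.26% rose and 8.28% fell in control mice, and 1.83% rose and 3.97% fell in dMF1/2 mice. Ring1, a ubiquitin ligase of Polycomb repressive complex 1, fell in both genotypes, with log2 fold changes of -0.36 (SE 0.11, adjusted p = 0.0479) in control and -0.75 (SE 0.11, adjusted p = 0.00295) in dMF1/2 mice. Pcgf5, a variant subunit of that complex, rose by 0.78 (SE 0.20, adjusted p = 0.0271) and 0.90 (SE 0.20, adjusted p = 0.0254) on the log2 scale. Pcgf2, another subunit, fell in control mice, with a log2 fold change of -0.56 (SE 0.11, adjusted p = 0.0102). The most abundant genes of the list were Cbx6 and Rbbp4, with means of 3560 and 2217 normalized reads. Of 14 Trithorax and MLL genes, the histone methyltransferase Ash1l alone was called, higher at P16 in control mice (0.36, SE 0.09, adjusted p = 0.0267), and Kmt2d was the most abundant with a mean of 4782.

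Of the inputs that set Hox levels in the embryo, the retinoic acid receptor gene Rara was called, and it fell in both genotypes. It changed by -0.53 on the log2 scale in control (SE 0.11, adjusted p = 0.0107) and -0.47 in dMF1/2 mice (SE 0.11, adjusted p = 0.0273). In all 7 of the 10 listed genes were in the tables and tested between the days, and Rarg and Rxra were the most abundant, with means of 3793 and 3405 normalized reads.

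Other transcription factors of positional identity in limb and skin were represented by 25 tested genes, of which 5 fell and 0 rose from P14 to P16 in control mice and 0 were called in dMF1/2 mice, against 8.28% of all genes that fell in control mice and 5.8% called in dMF1/2 mice. Alx4, a paired-type homeodomain gene and the most abundant of the list, fell from a mean of 14035 to 4825 normalized reads in control mice, a log2 fold change of -1.53 (SE 0.32, adjusted p = 0.0114). Tbx5, a forelimb gene, had a log2 fold change of -1.22 (SE 0.34, adjusted p = 0.0359), Meox1 of -0.97 (SE 0.24, adjusted p = 0.0223) and Msx2 of -0.87 (SE 0.21, adjusted p = 0.0207). En1, which marks the ventral limb and a lineage of back skin fibroblasts, also passed. At P16, Alx4 was higher in dMF1/2 mice (log2 fold change 1.70, SE 0.25, adjusted p = 0.0117), as was En1 (0.86, SE 0.15, adjusted p = 0.0228), while Prrx2 was lower (-0.56, SE 0.10, adjusted p = 0.0193). Prrx1, the second most abundant gene with a mean of 10694 normalized reads, was not called.

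The genes next to the Hox clusters were split in direction, with 11 of 23 lower and 11 higher at P16 in control mice. The 3 nearest genes of the tables on each side were taken, of which 23 were tested, while Skap1 next to cluster B had too few reads. The genes tested lay 60.7 to 910.4 kb from their cluster. They were Cbx3, Snx10, Skap2, Hibadh, Tax1bp1 and Jazf1 around cluster A, Snf8, Ube2z, Atp5g1, Snx11 and Cbx1 around cluster B, Atf7, Atp5g2, Calcoco1, Smug1, Cbx5 and Hnrnpa1 around cluster C, and Atf2, Atp5g3, Lnp, Mtx2, Hnrnpa3 and Nfe2l2 around cluster D. In control mice 3 fell (8.28% of all genes) and 2 rose (6.26% of all genes) from P14 to P16. The falls were those of Atp5g3 (log2 fold change -0.46, SE 0.07, adjusted p = 0.00355), Hnrnpa1 (-0.42, SE 0.07, adjusted p = 0.00452) and Snf8 (-0.40, SE 0.10, adjusted p = 0.0246). The rises were those of Lnp (0.66, SE 0.12, adjusted p = 0.00736) and Nfe2l2 (0.33, SE 0.10, adjusted p = 0.0464). In dMF1/2 mice Atp5g3 (-0.40, SE 0.07, adjusted p = 0.00929), Snf8 (-0.38, SE 0.10, adjusted p = 0.0473) and Calcoco1 (-0.32, SE 0.08, adjusted p = 0.048) fell (3.97% of all genes) and 0 rose (1.83%). Between the genotypes 0 differed at P14 (0.0525% of all genes) or at P16 (4.32%). The difference between Hox genes and their neighbours was not tested.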

How the data were processed

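YFP+ DP cells of 12 mice were sorted, and ribosome-depleted, strand-specific libraries were sequenced as single-end reads of 61 bases. Per the labels and methods, the authors trimmed reads with Trimmomatic, aligned them with TopHat2 to mm10, counted them per gene (GRCm38.p4) with HTSeq and normalized them with DESeq2 for each day. The deposited signal is these normalized reads of protein-coding genes, scaled for each day apart. The authors' columns of log2 fold changes, test scores and p-values were deposited too and were not used. Columns of library values not used numbered 0.

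Divided by the value of 1 read, 100% of library values were whole within 0.01, and these recovered reads set the depth, 19302358 to 29860750 per library. Within a day, the deposited values were tested with limma 3.58.1 (R 4.3.3) on log2(value + 1), with a trended prior, for genes whose mean reached 10, and p-values were adjusted over all genes by Benjamini and Hochberg with a threshold of 0.05. For the days and the interaction, recovered reads of the 14986 shared genes were rescaled by the median of ratios and the 4 groups were fitted together. The alternatives were edgeR 4.0.16 and DESeq2 1.42.0 on recovered reads, other pseudocounts, filters and scalings, a replicate block and left-out libraries. The scripts were tested on simulated data.

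Within a day, deviations of same-numbered libraries of the 2 genotypes correlated at 0.586, 0.389 and 0.304 at P14 and 0.256, 0.293 and 0.311 at P16, so that the numbers pair libraries within a day. This pairing comes from the data and is not stated by the labels.

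Values are given for each Hox gene that passed, that had a mean of at least 50 and groups that did not overlap, or that was highest or lowest, for neighbours and listed genes that passed, and for the 2 most abundant genes of most lists. The Hox genes and the lists were chosen with earlier results of these data known. Gene models came from GENCODE M21 and sequences of microRNAs and promoters from RefSeq (GRCm38.p6). Identity was computed over the 180 bases of the homeobox. Some genes and sequences are not reported here.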

Additional observations from a re-analysis of the deposited data

How the results depend on the processing

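Under other pseudocounts, filters and scalings and under edgeR, the number of Hox genes called was unchanged in each of the 5 comparisons, and the Hox genes whose values were recomputed kept their direction. The Hoxa10 interaction, Hoxd8 and Hoxd9 in control mice, and genes outside the Hox clusters were not recomputed under the alternatives. With 3 libraries a group, small differences of Hox genes with few reads could not be seen. The fit of the 6 libraries of 1 genotype called 2 Hox genes in control and 1 in dMF1/2 mice. At P16 DESeq2 and the replicate block each called 1 Hox gene, and the block changed no other Hox call within a day. Between days the numbers do not pair libraries (correlations of -0.0545, -0.0621 and -0.13 for control libraries, and 0.0292, 0.208 and -0.162 for dMF1/2 libraries), and not every library correlated best with its own number. There the block called 8 Hox genes in control mice and 3 in dMF1/2 mice. Over all genes it called 2243 of 13415 (16.7%) in control and 944 (7.04%) in dMF1/2 mice.

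Over all genes, the P14 count of 7 was 207 with DESeq2, 224 with the replicate block and 11 in a fit of all 12 libraries. The P16 count of 582 was 1123 with DESeq2 and 1403 with the block. The control count of 1951 was 806 with 6 libraries and 951 without both P14 libraries numbered 1, an alternative chosen after seeing the data. The dMF1/2 count of 778 was 1341 with DESeq2 and 322 with 6 libraries. The interaction count of 0 was 7 with DESeq2 and 2 without both libraries numbered 1, which also moved the dMF1/2 Hox median to -0.25. The cause of these changes was not tested.

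With 1 library left out, Hox calls ranged from 0 to 0 at P14, at P16 and for the interaction, from 2 to 7 in control and from 1 to 3 in dMF1/2 mice. Counts over all genes ranged from 0 to 18 at P14, 149 to 684 at P16, 693 to 2129 in control mice, 257 to 861 in dMF1/2 mice and 0 to 2 for the interaction. Hox medians ranged from -0.03 to 0.18, 0.09 to 0.25, -0.51 to -0.37, -0.45 to -0.25 and -0.07 to 0.17 in the same order. Of the recomputed Hox genes, Hoxd4 changed direction, in dMF1/2 mice without P14 dMF1/2 replicate 2 (log2 fold change -0.09, within a range of -0.09 to 0.48 over the 12 libraries).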
